A study of Mus musculus with 9 samples.

Results

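The comparison described here set craniofacial neural crest-derived cells against all other craniofacial cells of the same mouse embryos. Its members were 4 of the 9 arrays of the series, chosen by their labels: 2 of craniofacial EGFP+ cells (Cp) and 2 of craniofacial EGFP- cells (Cn). The embryos were P0-Cre/Floxed-EGFP double transgenics of age E12.5. Their Cre, under the promoter of myelin protein zero (P0), recombines a CAG-CAT-EGFP reporter, and the line, of C57/BL6J origin, had been crossed to ICR mice over several generations. Heads and trunks were dissected apart, dissociated and sorted by EGFP. Trunk EGFP+ (Tp) and EGFP- (Tn) cells of the same genotype and age, from which the heart fields had been removed, served for comparison. The EGFP+ gate can hold mixed cell types, slight labelling of the notochord by P0-Cre is known, and the EGFP- gate is defined only by the absence of the reporter. The study calls the duplicates biological. The sources used here state neither how many embryos an array stands for nor their litters. The p-values below rest on the spread between arrays of both regions.

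The neural crest is an embryonic cell population that leaves the dorsal neural tube. In the head it forms bone, cartilage, tendon, dental and corneal mesenchyme as well as glia, part of the sensory neurons and pigment cells, whereas in the trunk it forms peripheral neurons, glia and pigment cells but little skeleton. Brain, eye, skin and mouth epithelium, blood cells, vessels and most skeletal muscle of the head arise from other lineages.

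Each array was a 3D-Gene array read in 1 colour (Cy5), with 23473 probes. Values are the log2 of the authors' processed intensities, which have a median of about 25 on every array, so a value of 1 probe can be followed across arrays but levels of different probes cannot be compared. On the 4 craniofacial arrays between 72.8% and 87.0% of the probes lay above the mean of the blank spots plus 2 SD, with Cn replicate 2 the lowest. In each pair of equal replicate number both arrays were scanned together, with a detector gain 1 unit higher for Cp than for Cn in both pairs, and the part of the gain in the results was not tested. Only 306 probes, of 302 genes, carry a name here. They were picked by the study, from these very arrays, for differing between groups, so their counts are not independent evidence of a difference, and every other probe is unnamed.

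Large differences lay almost entirely on the side of transcripts that were low in neural crest-derived cells. Of 21807 probes tested, 988 were higher and 1373 lower in Cp than in Cn at an adjusted p under 0.05, which is 4.53% and 6.3% of the probes (10.8% in either direction). A difference of at least 4-fold was reached by 4 of the higher probes, all unnamed here, and 467 of the lower ones, and one of at least 16-fold by 0 and 78. The log2 difference between Cp and Cn ran from 2.69 down to -8.38, with medians of 1.02 among the higher and -1.57 among the lower probes, against 0.10 over all probes tested. All these values come from limma with the scan as a block, and the exact permutation test of 2 arrays against 2 cannot give a two-sided p below 0.333. The counts depend strongly on the fit. Fits without a craniofacial pair take their residual spread from the trunk arrays alone. A call that held in such a fit, here and below, was therefore not set against the spread between craniofacial replicates. Without the block 308 probes (1.41%) were higher and 944 (4.33%) lower, without replicate 1 of both groups 30 and 544, and without replicate 2 of both 156 and 665. With the ring around each spot as background, 0 were higher and 1 lower (Olfr376, adjusted p = 0.00862), while 1809 probes had an unadjusted p under 0.05.

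**Figure D1:**
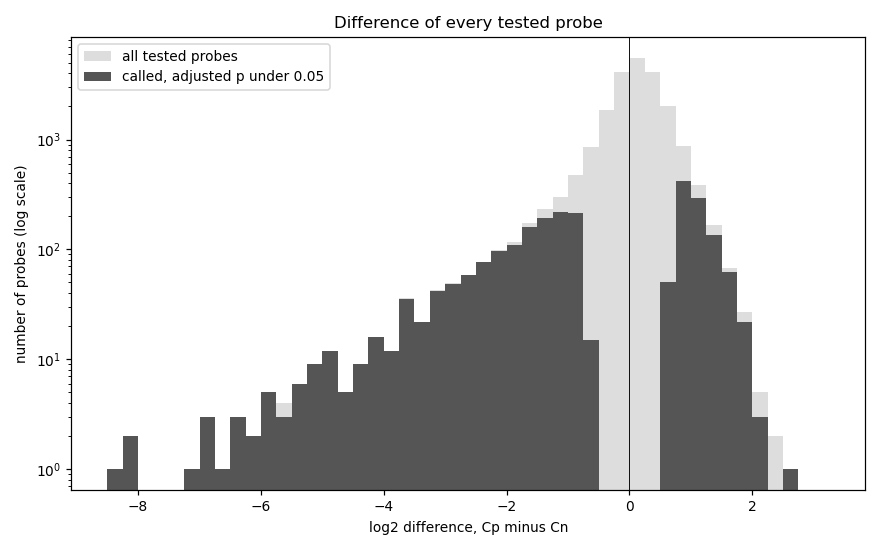
Number of probes (log scale) by log2 difference, Cp minus Cn, in bins of 0.25, for all 21807 probes tested (light) and for the 2361 called at an adjusted p under 0.05 (dark). The left tail reaches -8.38 and the right tail ends at 2.69.

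Among the named probes 44 were higher in Cp, 174 were lower and 88 did not pass. Names therefore cover 44 of 988 higher and 174 of 1373 lower probes, and the description below is of that part. Of the 306 named probes, 268 lay above the blank limit on all 4 craniofacial arrays, 7 lay below it on both Cp arrays and 4 on both Cn arrays. Without the block 31 of the 44 higher and 166 of the 174 lower probes still passed. In the main fit 71.2% of the named probes passed, against 10.8% of all probes tested. Every list count below is of probes the study picked, so it stands against these shares and tests no list.

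**Figure D2:**
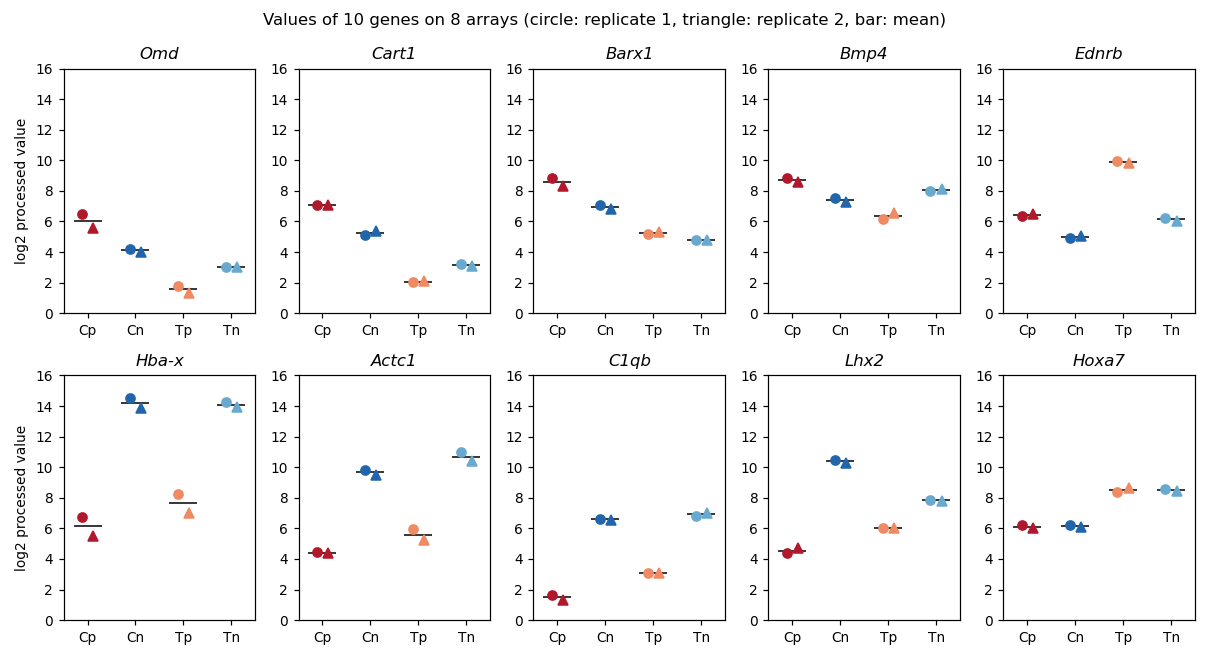
Log2 processed values of 10 genes on 8 arrays (circles replicate 1, triangles replicate 2, bars the mean of both). The Cp arrays lie above the Cn arrays for Omd, Cart1, Barx1, Bmp4 and Ednrb, below them for Hba-x, Actc1, C1qb and Lhx2, and at the same level for Hoxa7.

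Transcription factors of the craniofacial list, not all of them specific to facial mesenchyme, were divided. Pax1, Cart1, Barx1 and Pax7 were higher in Cp, Dlx1 and Dlx2 were lower, and 5 of the 11 named members of the list did not pass, with a list median of -0.31. Pax1, a factor of the sclerotome and pharyngeal pouches, measured 8.47 and 8.89 in Cp against 6.52 and 7.04 in Cn. That is a log2 difference of 1.90 ± 0.18 (SE, as throughout), adjusted p = 0.00478. Each such SE comes from the limma fit to 8 arrays, so it draws on the trunk arrays too and not on the craniofacial pairs alone. Cart1 (now Alx1), a homeodomain factor needed for the frontonasal skeleton, measured 7.07 and 7.05 in Cp against 5.14 and 5.37 in Cn, a 3.49-fold difference (adjusted p = 0.0041). The Cp and Cn arrays did not overlap for either gene, as was the case for 47.4% of all probes tested. Barx1, a homeobox gene of the molar and jaw mesenchyme, stood at 8.82 and 8.33 against 7.09 and 6.84, which is 1.61 ± 0.16. Pax7, expressed in migrating crest and in the dorsal neural tube, stood at 4.85 and 4.38 against 3.26 and 3.24, or 1.36 ± 0.21.

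Lhx8, a LIM homeobox gene of the palate and tooth mesenchyme, was 8.63 and 8.20 in Cp and 7.48 and 7.49 in Cn. Its arrays did not overlap, but its difference of 0.93 ± 0.22 missed the threshold (adjusted p = 0.0532). Dlx1 and Dlx2, neighbouring homeobox genes that pattern the jaw and also mark forebrain interneurons, were lower in Cp by 1.06 ± 0.22 and 1.27 ± 0.22 on the log2 scale. In the trunk the same 2 genes were higher in EGFP+ cells, with differences of 2.35 and 2.47. Among the factors that did not pass were also Dlx6 (-0.31), Tcfap2c (-0.47) and Tcfap2a (-0.64). Of the 4 higher calls 2 held without replicate 1 of both groups, where Barx1 (adjusted p = 0.0608) and Pax7 (0.153) were lost, and 3 without replicate 2, where Pax7 was lost (0.0612). Neither lower call held without either pair, and Dlx1 was also lost without the block (adjusted p = 0.101).

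Most named genes of the skeletal and connective tissue matrix list, not all of them specific to bone, cartilage, tendon or cornea, were higher in Cp. Of 13 named members 9 were higher and 0 lower, with a median of 1.20 against 0.10 over all probes tested. Omd, which encodes the small proteoglycan osteomodulin of mineralised matrix, had the highest difference among named probes. It measured 6.52 and 5.60 in Cp against 4.23 and 3.99 in Cn, a log2 difference of 1.95 ± 0.23 (adjusted p = 0.00828). The lower Cp array was still above both Cn arrays. Kera (keratocan, of the corneal stroma) and Epyc (epiphycan, of growth cartilage) are adjacent on chromosome 10 and were both higher, by 1.66 ± 0.21 and 1.43 ± 0.20. Tnc, which encodes the extracellular glycoprotein tenascin C, was 8.78 and 8.26 in Cp against 7.05 and 7.13 in Cn, or 1.43 ± 0.20.

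Mia1, a secreted protein of chondrocytes, was higher by 1.30 ± 0.20, and Lama4, a laminin chain of vessel and nerve basement membranes, by 1.22 ± 0.16. Crispld1, Chodl and Cpxm2 were the remaining higher members, at 1.18 to 1.20. Itgbl1 (0.81), Spon1 (0.66), Col22a1 (0.48) and C1qtnf3 (-0.48) did not pass. The linear processed values of the 13 probes summed to 1504 and 1797 on the Cp arrays and to 677 and 690 on the Cn arrays. Such sums, given here for some of the lists, follow the brightest probes and do not compare levels between genes. All 9 calls held without the block, 0 held without replicate 1 of both groups and 2 without replicate 2. The counts without a pair rest on 1 remaining pair of craniofacial arrays and on 1 residual degree of freedom, which the trunk arrays supply.

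Secreted signals moved the same way. All 4 named members of the list of face and limb mesenchyme signals were higher in Cp. Dkk1, an extracellular inhibitor of Wnt signalling needed for head formation, measured 7.74 and 7.34 in Cp against 5.67 and 5.62 in Cn, a 3.71-fold difference (1.89 ± 0.18, adjusted p = 0.00474). Bmp4, a bone morphogenetic protein of the facial primordia, measured 8.85 and 8.61 against 7.52 and 7.30, which is 1.33 ± 0.16. Every Cp array lay above every Cn array for both. Rspo2, a secreted amplifier of Wnt signalling, was higher by 1.37 ± 0.19, and Gdf5, a growth factor of forming joints, by 0.95 ± 0.18. Without the block the Gdf5 call was lost (adjusted p = 0.0814) and the other 3 held.

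The 5 named genes of the Wnt pathway all passed, 3 higher and 2 lower. Besides the inhibitor Dkk1 and the amplifier Rspo2, the R-spondin receptor Lgr5 was higher, at 6.68 and 6.51 in Cp against 5.65 and 5.26 in Cn (1.14 ± 0.16). Wnt8b, a ligand of the dorsal forebrain, was lower by 2.53 ± 0.17, and Celsr2, a cadherin of planar polarity and of neurons, by 1.33 ± 0.15. Without either pair 1 of the 4 mesenchymal signals passed, Dkk1, with adjusted p of 0.0473 without replicate 1 and 0.0251 without replicate 2. In the same fits Wnt8b still passed, whereas Lgr5 (0.0974 and 0.119) and Celsr2 (0.0714 and 0.0758) did not, which left 1 higher and 1 lower gene of the Wnt pathway.

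Markers of the crest lineage itself were few among the named probes. Ednrb, the endothelin B receptor of crest, glia and melanocyte precursors, measured 6.34 and 6.48 in Cp against 4.92 and 5.03 in Cn (1.43 ± 0.15, adjusted p = 0.00657). Foxd3, a forkhead factor of premigratory crest and glial precursors, measured 3.72 and 3.09 against 2.71 and 2.05, so the lower Cp array lay above both Cn arrays by a small margin (1.02 ± 0.18, adjusted p = 0.0271). With Pax7 these were 3 of 5 named crest genes, and the other 2, Tcfap2a (-0.64) among them, did not pass. Tcfap2a lay above the blank limit on 1 of 2 arrays in each group. These 5 genes are among those picked from these arrays for differing between groups, so their count is no test of the label. In the trunk 4 of the 5 were higher in EGFP+ cells, and Pax7 was lower (-3.99).

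Genes of Schwann cells and satellite glia were higher in 5 of 11 cases and lower in 0, with a median of 0.66. Among these 5 were Ednrb and Foxd3, already counted above as crest genes. Of all 306 named probes 44 were higher and 174 lower. Cmtm5 was higher by 1.06 ± 0.19, Lgi4, a secreted ligand needed for myelination of peripheral nerve, by 0.93 ± 0.17, and Gpr126, an adhesion receptor of myelinating Schwann cells, by 0.93 ± 0.17. Mal (0.66), Entpd2 (0.62), Pmp2 (0.39) and Fabp7 (-0.29) were among the 6 that did not pass. Summed values ran against the calls, at 1927 and 2207 on the Cp arrays and 2274 and 2292 on the Cn arrays. Fabp7 was the brightest of these probes. Without the block 2 of these 5 calls held, and without either pair 0 held, as was also the case for the 3 crest genes, of which 2 held without the block. Lgi4 (adjusted p = 0.0923), Gpr126 (0.0609) and Foxd3 (0.122) were among the calls lost without it.

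Genes of red blood cells were low in Cp and had the lowest median of the gene lists. Of 12 named probes of 10 erythroid genes, 11 were lower and 1 (Slc14a1, 0.49) did not pass, with a median of -4.86. Hba-x, an embryonic alpha-like globin, measured 6.78 and 5.50 in Cp against 14.5 and 13.9 in Cn, a 264-fold difference (-8.05 ± 0.28, adjusted p = 0.000638). Hbb-y, an embryonic beta-like globin, measured 9.36 and 8.25 against 15.2 and 15.0, or -6.32 ± 0.25. The 2 probes of Hbb-b1, an adult beta globin, gave -6.39 and -6.88, and globin genes are so alike that a probe may catch several of them.

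Genes other than globins fell with them. Alas2, the first enzyme of haem synthesis in red cells, was lower by 4.22 and 4.25 on its 2 probes, Car2 (carbonic anhydrase) by 4.96 ± 0.25 and Tal1, a transcription factor of blood formation, by 4.75 ± 0.31. Tal1 was above the blank limit on 1 of 2 Cp arrays. Summed over the 12 probes, processed values were 952 and 1698 on the Cp arrays and 104173 and 136455 on the Cn arrays. Most of each sum came from the globin probes, among which Hbb-b1 counts with 2 probes. All 11 calls held without the block and without either pair. In sorted bulk samples such as these, fewer cells of a type and less RNA per cell cannot be told apart.

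Promoters of several of these genes are printed because the genes moved together and because red cell genes are commonly bound by GATA factors. Windows run from 250 bases before to 50 bases after the first listed start site and come from RefSeq (build GRCm38.p6), where 216 of the 302 named genes had one. Capitals mark AGATAA or, on the other strand, TTATCT. Also searched on both strands were CCACACCC (on the other strand GGGTGTGG), found in 0 of 6 erythroid windows and 3.57% of all windows, and CAGCTG, which reads the same on both strands, found in 1 of 6 (Rhd) and 16.1%. Of 6 erythroid genes with a window, 4 held AGATAA on either strand (Alas2, Rhd, Tal1 and Trim10), against 11.4% of the 27025 windows of the table. A match is a description of the letters and not of a bound site.
Alas2 (chrX:150547167-150547466, plus strand): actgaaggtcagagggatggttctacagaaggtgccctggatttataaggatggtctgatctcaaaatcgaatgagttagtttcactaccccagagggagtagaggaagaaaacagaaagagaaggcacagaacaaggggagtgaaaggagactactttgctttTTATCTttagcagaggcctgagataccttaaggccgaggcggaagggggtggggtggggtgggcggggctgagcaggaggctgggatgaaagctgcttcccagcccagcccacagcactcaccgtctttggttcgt
Tal1 (chr4:115056176-115056475, plus strand): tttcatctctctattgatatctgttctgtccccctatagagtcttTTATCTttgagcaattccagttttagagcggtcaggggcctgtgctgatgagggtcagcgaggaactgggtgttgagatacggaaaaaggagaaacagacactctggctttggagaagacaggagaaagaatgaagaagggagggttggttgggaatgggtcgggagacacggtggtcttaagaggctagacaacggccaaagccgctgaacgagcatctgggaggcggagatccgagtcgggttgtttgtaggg
Trim10 (chr17:36869324-36869623, plus strand): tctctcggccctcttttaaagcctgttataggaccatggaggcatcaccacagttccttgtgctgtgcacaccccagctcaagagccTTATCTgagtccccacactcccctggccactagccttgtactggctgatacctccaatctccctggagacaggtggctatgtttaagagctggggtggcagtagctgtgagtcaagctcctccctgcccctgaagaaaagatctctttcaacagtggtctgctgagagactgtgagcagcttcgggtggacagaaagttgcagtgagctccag
Hba-x (chr11:32276350-32276649, plus strand): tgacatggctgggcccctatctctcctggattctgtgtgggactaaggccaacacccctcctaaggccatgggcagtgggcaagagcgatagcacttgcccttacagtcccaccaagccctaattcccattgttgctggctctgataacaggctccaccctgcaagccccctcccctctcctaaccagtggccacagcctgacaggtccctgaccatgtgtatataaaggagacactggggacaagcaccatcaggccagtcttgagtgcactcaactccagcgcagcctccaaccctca
The first base of the match lay at -86 from the start in Alas2, at -205 in Tal1 and at -163 in Trim10. These 3 genes were lower in Cp by 4.22 (first probe), 4.75 and 2.04 on the log2 scale. Hba-x, whose window holds neither AGATAA nor TTATCT, was lower by 8.05. Other forms of a GATA site were not searched, and the Hba-x window does hold TGATAA. A window without the searched letters is therefore not shown to lack such a site.

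Genes of macrophages, mast cells and platelets were lower in 16 of 17 cases, with a median of -2.92, and the exception was Cd83 (-0.62, adjusted p = 0.0665). C1qb, a chain of complement C1q made by macrophages, measured 1.67 and 1.32 in Cp against 6.63 and 6.56 in Cn (-5.10 ± 0.17, adjusted p = 0.000638), and its neighbour C1qc on chromosome 4 had a difference of -2.92. Cxcl4 (platelet factor 4) was not above the blank limit on either Cp array. By the values as read it was 31.1-fold lower in Cp, and its Cp level is uncertain. The groups were far apart for both genes. Rac2, a small GTPase of blood cells, was lower by 4.18 ± 0.16 with 1 of 2 Cp arrays above the limit, the adjacent chemokine genes Ccl3 and Ccl4 by 3.64 and 2.95, the mast cell carboxypeptidase Cpa3 by 3.40 and the Fc receptor gamma chain Fcer1g by 3.13. Summed values were 99.3 and 115 on the Cp arrays and 732 and 757 on the Cn arrays. All 16 calls held without the block and 15 without either pair.

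Striated muscle genes were lower in 16 of 17 cases, with a median of -3.30. Actc1, the cardiac actin that embryonic skeletal muscle also makes, measured 4.43 and 4.40 in Cp against 9.82 and 9.51 in Cn, a 37.9-fold difference (-5.24 ± 0.17, adjusted p = 0.000638). Myog, a transcription factor that starts muscle differentiation, measured 2.68 and 2.39 against 6.92 and 6.72, or -4.29 ± 0.22. The Cp values of both were tightly grouped and well below the Cn values. Contractile proteins followed, with Myl1 lower by 4.73, Tnnt2 by 4.17, Tnnt1 by 3.89 and Myh3 by 3.89. Myod1, which sets muscle identity, was lower by 1.56 ± 0.16, and Myoz1 was at 4.78 and 4.58 in Cp and 4.79 and 4.57 in Cn. Summed values were 153 and 184 on the Cp arrays against 1815 and 2343 on the Cn arrays. All 16 calls held without the block, 14 without replicate 1 of both groups and 16 without replicate 2.

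Forebrain genes, among them genes shared with the retina, were lower in Cp. All 19 probes of the list passed, with a median of -3.48 and a range of -5.83 to -1.04. Lhx2, a LIM homeobox gene of cortex and retina, measured 4.40 and 4.70 in Cp against 10.4 and 10.3 in Cn (-5.83 ± 0.18, adjusted p = 0.000638). Otx1, a homeobox gene of forebrain and midbrain, measured 3.26 and 3.51 against 7.91 and 7.79 (-4.47 ± 0.17). The 2 Cp arrays were alike for both genes and far below Cn. Atoh7, needed for retinal ganglion cells, was lower by 5.11 ± 0.21, Fgf15 by 4.93 ± 0.27 and the cortical homeobox gene Emx1 by 4.89 ± 0.20. Lhx9 was lower by 5.27 ± 0.31. Emx1 and Lhx9 were above the blank limit on 1 of 2 Cp arrays. The smallest differences of the list were those of Gbx2 (-1.04), Dlx1 and Dlx2. Without the block 18 calls held, and 15 and 16 without replicate 1 and replicate 2 of both groups.

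General neuronal genes were lower in 32 of 36 probes, with a median of -2.38. Lhx1 was lower by 4.28 ± 0.24, Nsg2 by 4.05 ± 0.21, Dner by 4.01 ± 0.19, the adhesion molecule Chl1 by 3.91 ± 0.20, the intermediate filament Ina by 3.75 ± 0.18 and the membrane glycoprotein Gpm6a by 3.68 ± 0.17. Stathmin-like Stmn4, at 7.02 and 6.55 in Cp against 10.3 and 10.1 in Cn, and the tau gene Mapt, at 6.91 and 6.54 against 9.63 and 9.84, show the same separation at other levels. The 4 probes that did not pass were Rgs4 (0.45), the neurofilament gene Nefl (0.41), Neurod4 (0.14) and the growth cone gene Gap43 (-0.47). Of the 32 calls 31 held without the block and 25 without either pair.

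Peripheral neuron genes stood between these groups. Of 15 named members 1 was higher, 5 were lower and 9 did not pass, with a median of 0.08. Gfra3, a GDNF family receptor of sensory and sympathetic neurons, measured 4.44 and 4.59 in Cp against 3.32 and 3.32 in Cn (1.19 ± 0.19, adjusted p = 0.0199). The sensory factor Isl2 (0.86), the sodium channel Scn10a (0.85) and the ATP receptor P2rx3 (0.01) did not pass. Th, the rate-limiting enzyme of catecholamine synthesis, was lower by 1.93 ± 0.32, and Slc10a4 by 2.45 ± 0.22. The nicotinic receptor subunit Chrna3 was below the blank limit on both Cp arrays and 4.48-fold lower by the values as read. The Gfra3 call held without the block but was lost without either pair. Of the list 4 genes were lower without the block and 3 without either pair.

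Genes of neuropeptides and secretory granules were divided in the same manner, with 2 higher, 6 lower and 2 not passing. Avpr1a, a vasopressin receptor, measured 4.76 and 4.47 in Cp against 3.27 and 2.83 in Cn (1.57 ± 0.25). Penk1, the enkephalin precursor, was 9.71 and 9.26 against 8.36 and 8.63, a difference of 0.99 ± 0.22 with an adjusted p of 0.046 that rose over the threshold without the block. Arrays of the 2 groups did not overlap for either gene. The granule proteins Resp18, Scg5, Scg3 and Chga were lower by 3.58, 3.56, 3.25 and 2.01, the peptide precursor Cartpt by 1.90, and the prohormone convertase Pcsk2 by 0.99. Without either pair 0 genes of the list were higher, Avpr1a included (adjusted p = 0.113 and 0.114), and 5 were lower.

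Epithelial genes were lower in 6 of 7 cases, with a median of -2.07. Krt14, a keratin of basal epidermis, measured 7.12 and 7.29 in Cp against 9.34 and 9.24 in Cn (-2.09 ± 0.17, adjusted p = 0.00285), and the desmosomal plakophilin Pkp3 was lower by 2.07 ± 0.17. Plek2 was lower by 3.11 ± 0.18 and Ap1m2, a clathrin adaptor subunit of epithelia, by 2.24 ± 0.18. All 6 calls held without the block and without either pair.

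Endothelial genes did not move as 1 group. Thsd1 was lower by 4.50 ± 0.23 and Ctla2b by 1.92 ± 0.18, whereas Fli1, an ETS factor of vessels and blood, was higher by 1.24 ± 0.15, the adrenomedullin coreceptor Ramp2 by 0.96 ± 0.19, Egfl8 by 0.89 ± 0.17 and Sox18 by 0.78 ± 0.16. Fli1 measured 4.69 and 4.86 in Cp against 3.49 and 3.59 in Cn. The 4 higher calls became 1 without the block and 0 without either pair, and both lower calls held in each of these fits.

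The Hox genes, patterning factors of the head-to-tail axis, passed the test between the 2 head populations in 1 of 15 cases. Over all probes tested 10.8% passed, and of the named probes 71.2%. Hoxd4 was higher by 1.03 ± 0.21 (adjusted p = 0.0398), at 2.49 and 3.28 in Cp against 1.79 and 1.92 in Cn, and the call was lost without the block and without either pair. The other 14 had differences between -0.67 (Hoxb7) and 0.52 (Hoxc9), and the list median was -0.04. Hoxa7 was 6.21 and 6.01 in Cp and 6.22 and 6.08 in Cn, and Hoxa5 was 2.15 and 2.42 against 2.48 and 2.63. Hoxb5 and Hoxb6 were above the blank limit on 1 of 2 Cn arrays, and a p above the threshold does not show that these genes were equal.

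**Figure D3:**
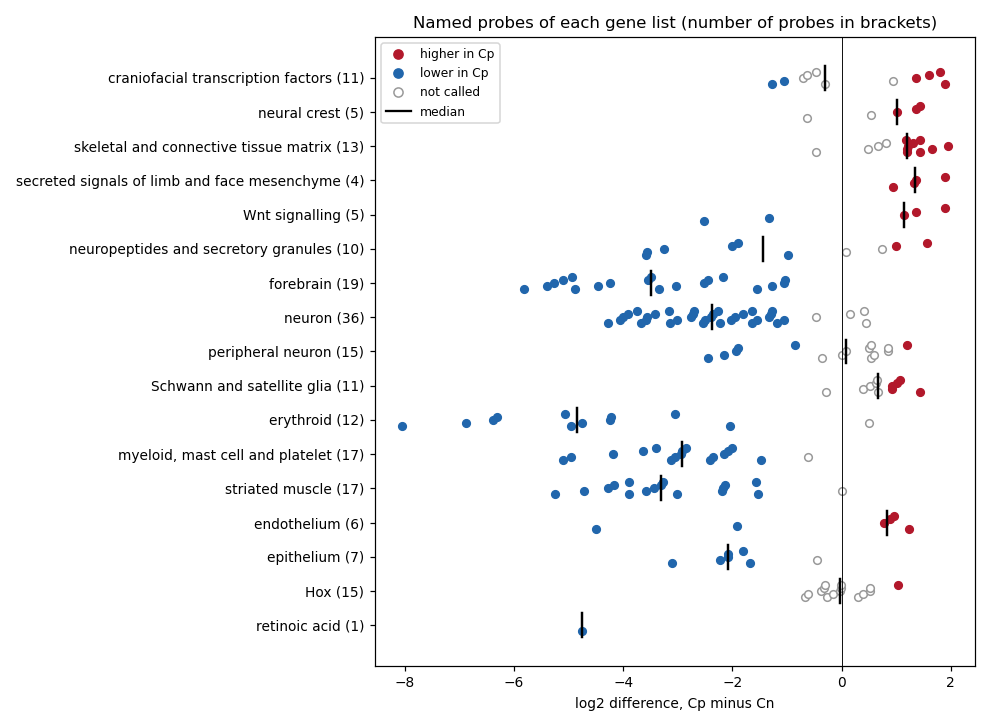
Log2 difference, Cp minus Cn, of each named probe by gene list (filled red higher in Cp, filled blue lower in Cp, open not called at an adjusted p of 0.05, black bars medians). List medians run from -4.86 for 12 erythroid probes to 1.35 for 4 secreted signals of face and limb mesenchyme, and the 1 retinoic acid gene, Aldh1a1, lies at -4.76.

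Aldh1a1, a retinaldehyde dehydrogenase of the dorsal eye, was the named gene of retinoic acid synthesis and measured 2.58 and 2.36 in Cp against 7.27 and 7.19 in Cn, a 27.1-fold difference. No melanocyte gene of the list was among the named probes. S100a4, a calcium-binding protein of motile mesenchymal cells, was higher by 1.15 ± 0.17, at 6.14 and 5.67 against 4.88 and 4.64. These arrays did not overlap.

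For most named probes, which the study picked from these arrays for differing between groups, the craniofacial difference was unlike the trunk difference. Across all probes tested the EGFP+ minus EGFP- difference itself differed between the regions for 2343 probes (10.7%). These included 213 of the 306 named ones. List counts by region below stand against that share and test no list. In the trunk 3.49% of the probes were higher and 5.15% lower in EGFP+ cells. Of the 44 named probes higher in Cp, 24 were lower in Tp than in Tn, 11 were higher in both regions and 9 did not pass in the trunk. Of the 174 named probes lower in Cp, 57 were higher in Tp, while 84 were lower in both, of which 20 differed between regions. The difference between regions passed for all 24 and all 57 probes that went opposite ways. Both differences come from the same fit, so passing with opposite signs all but ensures this, and it is no added evidence. No array enters both differences, but the calls in head and trunk share the spread of the same fit to 8 arrays. The first replicates of the 4 groups were also scanned together.

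Most genes of the matrix list went opposite ways. Of the 13 named members, 9 were higher in Cp, whereas in the trunk 10 were lower and 3 higher in EGFP+ cells, and 11 differed between regions. Kera had a difference of 1.66 in the head and -2.15 in the trunk, Epyc 1.43 and -2.98, and Mia1 1.30 and -3.20. Lama4 was an exception, with 1.22 in the head and 1.23 in the trunk. Bmp4 stood at 1.33 and -1.74, and Gdf5 at 0.95 and -2.48. Fli1 also turned, from 1.24 in the head to -2.07 in the trunk.

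Nervous system genes separated the regions in the other direction. The 15 peripheral neuron genes and the 11 glial genes were all higher in Tp than in Tn, with medians of 2.89 and 2.63, against medians of 0.08 and 0.66 in the head. Differences between regions passed for 14 of the 15 and 8 of the 11. Ednrb was higher in both, by 1.43 in the head and 3.76 in the trunk. Of the 36 neuronal probes 22 were higher and 7 lower in Tp, and 31 differed between regions. Th, at -1.93 in the head, was at 4.08 in the trunk, and Cartpt went from -1.90 to 3.32. Forebrain genes, with a median of -3.48 in the head, had one of -0.16 in the trunk, and 18 of 19 differed between regions.

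Most blood and muscle genes were lower in EGFP+ cells of both regions, with 11 of 12 erythroid probes and 16 of 17 muscle probes in the head and as many in the trunk. Slc14a1 (0.49 in the head, -0.72 in the trunk) passed in neither. The erythroid median was -4.86 in the head and -4.37 in the trunk, and 0 of 12 probes differed between regions at the threshold. Hba-x had a difference of -8.05 in the head and -6.46 in the trunk, and the difference between them, -1.59, had an adjusted p of 0.0677. For muscle the medians were -3.30 and -3.41, with 3 of 17 differing between regions, and for macrophage, mast cell and platelet genes -2.92 and -3.20, with 2 of 17.

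**Figure D4:**
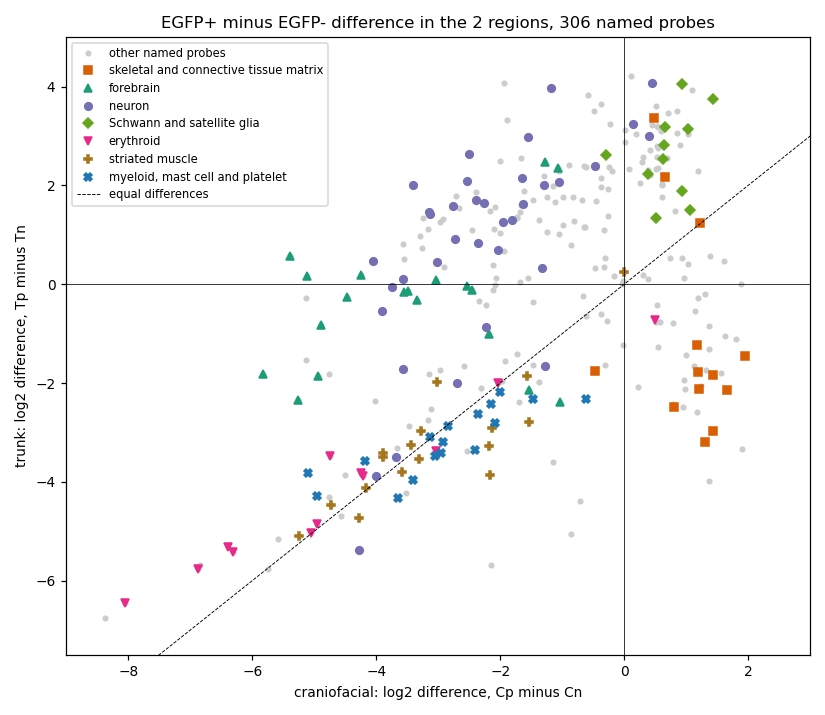
Log2 difference of EGFP+ minus EGFP- cells in the head (x axis) against the trunk (y axis) for 306 named probes, with 7 gene lists marked and a dashed line where both are equal. Erythroid, muscle and myeloid probes lie near the line at lower left, neuronal probes mostly at upper left and matrix probes mostly at lower right.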

How the data were processed

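RNA of sorted cells was labelled with Cy5 and hybridised by the authors to 9 arrays. The deposited intensity values comprise the scanner's median pixel of each spot and of its ring, and processed intensities that are linear, track the spot less the blank level, scaled by array, with no value for spots at or under the blanks. Neither their formula nor the scanner software is given in the sources used here. Names came from the study's list of 347 altered probes, of which 306 have a symbol.

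Processed values were used because the comparison was defined on them. A missing value was replaced by the lowest of its array, which understates folds there (on craniofacial arrays this touched 0 named probes and 183 of the 2361 called ones). Tested were the 21807 of 23473 probes that exceeded the blank mean by 2 SD on at least 2 of 8 arrays. Trunk EGFP+ replicate 3, alone in its scan, was left out. Limma 3.58.1 in R 4.3.3 fitted 4 groups with the scan as a block (scan 1 held replicate 1 of all groups, scans 2 and 3 replicate 2 of head and trunk), adjusted by Benjamini-Hochberg and called at 0.05. The script was tested on simulated data. Equal replicate numbers marked a shared scan, and deviations of Cp and Cn from their group means correlated at 0.42 across probes, those of Tp and Tn at 0.41. The block changed counts by over 1.5 times, as given in the text. For a probe below the limit on both arrays of a group, a bound took the higher of the lowest signal above the limit and its own value. For Cxcl4, Chrna3 and M200014733 this was the own value, so their folds are plain estimates and not bounds.

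Named are the 10 highest and 10 lowest called named probes without overlap, up to 6 members a list with the largest differences, genes the study's text names by array, and 2 unnamed probes in each direction. Further list members, such as Otx1, are named to account for the calls, and some genes are not reported here. Members, lists and fit were chosen with earlier results of these data known, including the low counts with the ring as background. Lists were counted with no set test. Symbols are those of the study's list, and 298 of 302 matched 1 gene of RefSeq (GRCm38.p6), used for neighbours and promoters. Alternatives were the ring (normexp, offset 50) and the blanks (offset 16) as background, quantile normalization, other fills and filters, fits without the block, an unmoderated contrast and each replicate left out.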

Additional observations from a re-analysis of the deposited data

Results flagged for a closer look

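Results stood out here where the EGFP+ minus EGFP- difference in the head differed from that in the trunk by limma's test of the difference itself. This held for 2343 of 21807 probes. Among the 20 named probes with the largest craniofacial differences, those higher in Cp mostly ran the other way in the trunk, so that the log2 difference between regions was 5.23 ± 0.26 (SE) for Pax1, 4.41 ± 0.29 for Epyc, 3.81 ± 0.29 for Kera, 3.40 ± 0.32 for Omd, 3.36 ± 0.36 for Avpr1a, 2.92 ± 0.23 for Cart1 and 2.67 ± 0.26 for EG636791. Dkk1, with no difference in the trunk that passed (-0.0036), and Barx1, higher by 0.46 there without passing, gave 1.89 ± 0.26 and 1.15 ± 0.23. Ednrb was higher in both regions and more so in the trunk (-2.32 ± 0.22).

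Among the probes lower in Cp, Lhx2 differed between regions by -4.01 ± 0.25. Olfr376 and Xtrp3s1 were low in both EGFP+ groups and lower still in the head, by -1.61 ± 0.26 and -1.15 ± 0.23. Adjusted p-values of these 13 probes were between 0.00359 and 0.036. No cause of a difference between regions was tested.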

How the results depend on the processing

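Counts above come from the blocked fit to log2 processed values, which has 2 residual degrees of freedom. Without the replicate block there were 308 higher and 1204 region-dependent probes, and over all 9 arrays without it 307 and 1419. With the ring as background the counts were 0 higher, 1 lower and 0 region-dependent, and without the replicate block 1, 12 and 8. Members of the lists higher in Cp then numbered 0 and 0, and those lower 0 and 7. The cause was not tested, and the ring followed the spot, with correlations across probes of their logs of 0.909 to 0.985 per array. The blank spots as background gave 1614 higher probes, a limit passed on all 4 craniofacial arrays 1683 (of 16759 tested) and a difference of at least 1 on the log2 scale 517. The unmoderated contrast without the block gave 58 higher, 226 lower and 249 region-dependent probes, and 6 higher list members. Leaving out a replicate, which removes its pair, gave 30 to 156 higher, 544 to 665 lower and 909 to 1204 region-dependent probes, and 3 to 6 higher list members. The other counts stayed within 1.5 times. Of 94 named or singled-out probes, 89 kept their direction under all 17 alternatives and 5 also their call. Of all called named probes, 4 changed direction with the ring, with or without the block, among them Pcsk2 (from -0.99 to 0.0332), Slc36a2 (from 1.03 to -0.00105) and Galnt9 (from -0.89 to 0.0533), and 0 in the other fits. Of the probes that were not called, with the ring, with or without the block, Tcfap2a was at 5.37e-05, Hoxa6 at 0.0452, Hoxb8 at -0.00478 and Hoxb6 at 0.055. Hoxb6 was at 0.00546 with the blanks and between -0.651 and 0.0128 with a replicate left out, and Hoxb5 at 0.00809 with quantile normalization and between -0.105 and 0.0762 with a replicate left out. Over all probe and alternative combinations 1219 kept call and direction, 343 lost the call and 11 gained it. Median spots were 2.28 to 3.04 times the blank mean on the craniofacial arrays, which limits the precision.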

Other observations

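Of the named probes, 115 belong to none of the gene lists, and 13 of these were higher in Cp, 61 lower and 41 did not pass. The lowest difference of any probe was that of Olfr376, annotated as an olfactory receptor gene, at 4.26 ± 0.54 in Cp against 12.6 ± 0.21 in Cn (mean ± SD, n = 2, a difference of -8.38 ± 0.18, adjusted p = 0.000399), and it was also low in the trunk (-6.76). Xtrp3s1, an amino acid transporter family gene now named Slc6a20a, had -6.84 in the head and -5.69 in the trunk, and the steroid dehydrogenase genes Hsd3b6 and Hsd3b2 had -5.75 and -3.52 in the head and -5.77 and -4.22 in the trunk. Uncx4.1, a homeobox gene of the somites and brain, had -5.59 and -5.16, with 1 of 2 Cp arrays above the blank limit. The difference between regions passed the test for Olfr376 and Xtrp3s1 and not for Hsd3b6 and Uncx4.1.

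Igfbpl1, which encodes a protein like the insulin-like growth factor binding proteins, measured 2.53 and 2.78 in Cp against 7.34 and 8.23 in Cn (-5.13 ± 0.21) and had -1.52 in the trunk. Foxp2, a forkhead factor of brain, had -2.53 and -3.38. On the higher side were EG636791, at 5.87 and 5.22 against 4.02 and 3.83 (1.62 ± 0.18), the GABA receptor subunit Gabra4 (1.37 ± 0.15), the potassium channel subunit Kcnmb2 (1.10 ± 0.23, a call lost without the block at an adjusted p of 0.0736, and 3.94 in the trunk) and the growth-restraining imprinted gene Phlda2 (0.98 ± 0.18, and -2.13 in the trunk). Igfbpl1, Foxp2, Gabra4, Kcnmb2, Phlda2 and Hsd3b2 were chosen after their values were seen.

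Of 15 pairs of named genes that follow each other by start position among protein-coding genes, both members passed in 7, with 6 pairs lower and 1 pair (Epyc and Kera) higher in Cp. Neither member passed in 7 Hox pairs, and Ranbp17 (-1.04) passed beside Tlx3 (0.53), which did not. Probe M200005191, which has no name here, had the highest difference of all probes. It stood at 8.65 ± 0.11 in Cp against 5.97 ± 0.61 in Cn (a difference of 2.69 ± 0.28). Probe M200014733, not above the blank limit on either Cn array, was 4.70-fold higher by the values as read. The unnamed probes M300003686 and M400011276 had the lowest differences among unnamed probes, -8.14 ± 0.29 and -7.15 ± 0.39.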
